A study of Mus musculus with 6 samples.

Results

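The VEGF, angiopoietin and PDGF signalling genes described here are 10 genes taken by name from a table of 30768 genes: the receptor genes Kdr, Flt1, Tek and Tie1, the angiopoietin gene Angpt2, the VEGF family genes Vegfa, Vegfb, Vegfc and Pgf, and the PDGF gene Pdgfb. All 10 had a row in the table, and 9 had enough counts to be tested, Vegfc being the exception. RNA was sequenced from bEnd.3 cells, an endothelial line from mouse brain that was immortalised with a viral oncogene, so every library comes from 1 cell line in culture. The 3 control libraries are titled mimic_NC and labelled control, and the 3 miR-423-5p libraries are titled mimic_OE and labelled as overexpressing miR-423-5p. The labels give no dose and no time after treatment. They also do not state that replicates were grown separately, so a p-value here reflects library-to-library spread that could be technical.

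VEGF proteins are secreted dimers that bind receptor tyrosine kinases on endothelial cells. KDR (VEGFR2) carries most of the growth and permeability signal, while FLT1 (VEGFR1) binds VEGF-A, VEGF-B and placental growth factor tightly and, with its soluble form, acts largely as a trap. The angiopoietins bind TIE2, the product of Tek: ANGPT1 activates it and keeps vessels quiet, ANGPT2 is made and stored by endothelial cells and often opposes ANGPT1, and TIE1 is a partner of TIE2 with no well established ligand of its own. PDGF-B is released by endothelial cells and attracts pericytes, which carry its receptor PDGFRB.

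Total counts ran from 63217696 to 78456344 per library. Levels are given as CPM, the count relative to the size of the library after TMM scaling in edgeR, unless FPKM, which also divides by gene length, is named. Of 18103 genes put through the quasi-likelihood test of edgeR at a Benjamini-Hochberg adjusted p under 0.05, 16.3% were called, 9.09% as higher and 7.21% as lower in the miR-423-5p libraries, and the CPM of the groups did not overlap for 38.4%. With scaling to total counts alone the median log2 fold change of these genes moved from -0.024 to -0.18, and the share of calls that were higher from 55.8% to 25.4%; changes below are relative to the TMM scaling. Control 3 stood apart in marker genes of other cells: 5 neuron markers summed to 61.6 CPM there and to 0.575 to 1.12 CPM in the other 5 libraries, and 3 epithelial markers to 13.2 CPM there and to 0.324 to 0.73 CPM elsewhere. The macrophage markers Lyz2, Adgre1 and Csf1r were at 153, 25.1 and 21.8 CPM in control 3, while the other libraries reached at most 10.8, 0.059 and 1.61 CPM. Itgam, Ptprc and Aif1 were also highest in control 3, but Cd68 was at 577 to 986 CPM in all 6 libraries and highest in miR-423-5p 3. With Cd68, the 7 macrophage markers summed to 978 CPM in control 3 and to 581 to 998 CPM in the other libraries. Of 11 endothelial markers, 9 were called higher and none lower (10 had an unadjusted p under 0.05, all of them higher, and DESeq2 also called 9 higher and 0 lower), with a median log2 fold change of 0.78 beside -0.024 over all tested genes. The tight junction gene Cldn5, an endothelial marker of the brain, was at 0.11 to 0.66 CPM in all 6 libraries.

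A microRNA pairs with messenger RNAs through its seed, bases 2 to 8 counted from the 5′ end, and the complement of the seed was looked for in the 3′ UTRs of the 10 genes, taking for each gene the longest one annotated. The mature sequence of mouse miR-423-5p in RefSeq (chr11:77078122-77078144, minus strand, GRCm38.p6) is shown first, with the seed in capitals. Below it are the matches in Vegfa and the 7-base matches of 2 other ligand genes (GRCm38 coordinates in the GENCODE M21 annotation, all on the minus strand), with the letters that pair with the seed, and the A that follows them in an 8mer or a 7mer-A1, in capitals.
miR-423-5p: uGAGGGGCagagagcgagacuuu
Vegfa, chr17:46018073-46018100: tctacaaaagcaccccGCCCCTCtgggc
Vegfa, chr17:46017933-46017960: aagaggcctggtaatgGCCCCTCctcct
Vegfa, chr17:46017744-46017771: ggggcaggacccgcaaGCCCCTCAcgga
Vegfb, chr19:6982573-6982600: cttctggctggctgtctCCCCTCActat
Pdgfb, chr15:79996791-79996818: cactcatctcttcctgtCCCCTCAgccc

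Vegfa held 3 matches to the whole seed (GCCCCTC), the last of them an 8mer (GCCCCTCA), in a 3′ UTR of 1865 bases. The CCCCTC within each match began at 775, 915 and 1104 bases after the stop codon. Vegfa was the 1 gene of the 10 with a match to the whole seed in its 3′ UTR. Over all 13919 tested genes with an annotated 3′ UTR, 14.6% held at least 1 match to the whole seed, 4.22% an 8mer, and 62 genes (0.445%) 3 or more. Vegfa is among those 62. Vegfb and Pdgfb each held 1 match to seed bases 2 to 7 followed by A (CCCCTCA), which 13.2% of these 3′ UTRs hold, and Pgf held 2 matches to bases 2 to 7 alone (CCCCTC), against 38.9% of these 3′ UTRs with at least 1. Kdr, Flt1, Tek, Tie1, Angpt2 and Vegfc held none of these in their 3′ UTR. Before the stop codon of the same transcripts, Tie1 held 1 match to the whole seed. Flt1, Angpt2, Vegfa and Pdgfb held matches to bases 2 to 7 alone there. The share of all genes with a match before the stop codon was not worked out. A match is a string of letters, and binding at it was not tested.

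**Figure D1:**
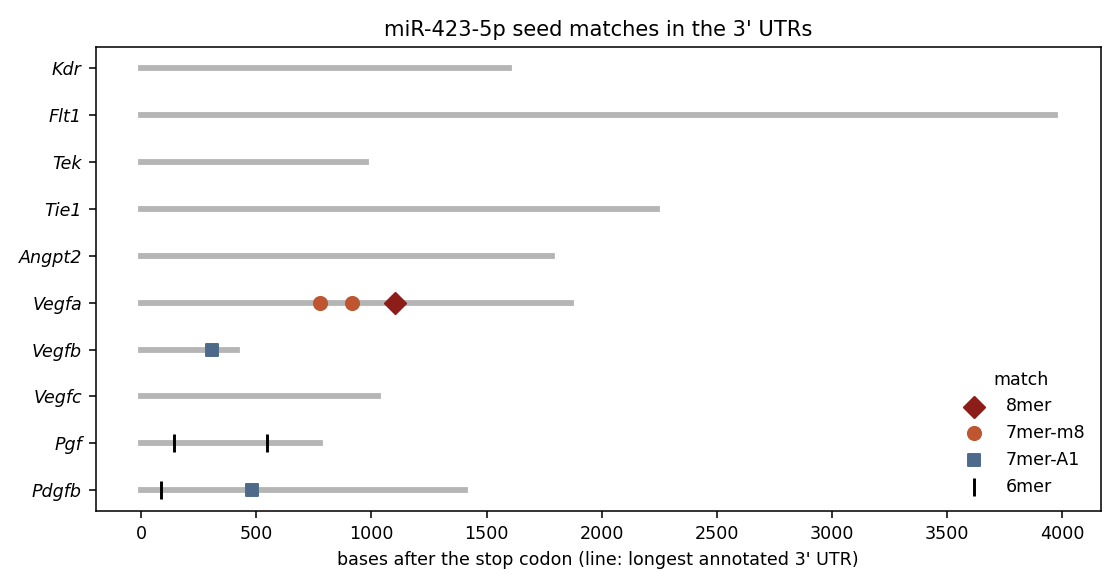
Matches to the miR-423-5p seed along the 3′ UTRs (grey lines, the longest one annotated per gene), by bases after the stop codon; an 8mer pairs with bases 2 to 8 and is followed by A, a 7mer-m8 lacks that A, a 7mer-A1 pairs with bases 2 to 7 and is followed by A, and a 6mer pairs with bases 2 to 7 alone. Each marker stands at the first base of CCCCTC. Vegfa has 3 markers, at 775, 915 and 1104 bases, and the 4 receptor genes and Angpt2 have none.

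Setting miR-423-5p beside control libraries asks how overexpression of the microRNA changes these messages. Of the 9 genes tested, 5 rose (Kdr, Tek, Tie1, Angpt2 and Pgf), none was called lower with edgeR, and 4 were not called (Flt1, Vegfa, Vegfb and Pdgfb). The background share of higher calls was 9.09%. Besides the 5 that rose, 1 gene, Vegfa, had an unadjusted p under 0.05, and DESeq2 called the same 5 higher and Vegfa lower. The 5 genes that rose were also the 5 whose CPM did not overlap between the groups, where the share over all tested genes was 38.4%. The median log2 fold change of the 9 genes was 0.60 beside -0.024 over all genes tested.

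Of the 4 receptor genes, 3 rose and Flt1 was not called. Kdr (ENSMUSG00000062960, chromosome 5, 75932827 to 75978458, minus strand), the main signalling receptor for VEGF-A, stood at 51.6, 48.1 and 50.9 CPM in controls 1, 2 and 3 and at 73.4, 97.6 and 75.4 CPM in miR-423-5p libraries 1, 2 and 3. The groups did not overlap, and the miR-423-5p values spread more widely (82.1 ± 13.4 against 50.2 ± 1.89 CPM, SD, n = 3). Kdr rose 1.64-fold (log2 fold change 0.71 ± 0.12, SE; adjusted p = 0.00862 by edgeR). The call was lost without control 2 (edgeR adjusted p = 0.0547) and with limma on log2(FPKM + 1), where the log2 difference was 0.45 (adjusted p = 0.0589); over its 15 alternatives the adjusted p ran from 3.84e-06 to 0.0589 and 12 kept the call.

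Flt1 (ENSMUSG00000029648, chromosome 5, 147561604 to 147726011, minus strand), the receptor and trap for VEGF-A, VEGF-B and placental growth factor, stood at 14.4, 11.4 and 12.0 CPM in the controls and at 10.9, 16.4 and 12.1 CPM in the miR-423-5p libraries. The groups overlapped fully, with miR-423-5p library 2 the highest and library 1 the lowest of the 6. The log2 difference was 0.067 with a 95% interval from -0.35 to 0.48, and it turned to -0.088 with total-count scaling. The counts are per gene, so the full-length and soluble forms of FLT1 were not told apart.

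Tek (ENSMUSG00000006386, chromosome 4, 94739289 to 94874976, plus strand), which encodes the angiopoietin receptor TIE2, stood at 9.76, 8.94 and 7.56 CPM in the controls and at 18.4, 27.3 and 20.2 CPM in the miR-423-5p libraries. The lowest miR-423-5p library was above the highest control by a wide margin. Tek rose 2.51-fold (log2 fold change 1.33 ± 0.18, SE; adjusted p = 0.00379 by edgeR), and 1.61% of tested genes had a larger log2 fold change. Tie1 (ENSMUSG00000033191, chromosome 4, 118471191 to 118490061, minus strand), whose product pairs with TIE2, stood at 202, 200.1 and 179 CPM in the controls and at 374, 372 and 368 CPM in the miR-423-5p libraries. The groups were far apart, and the SD of the 3 miR-423-5p values was 3.15 CPM at a mean of 371 CPM. Tie1 rose 1.92-fold (log2 fold change 0.94 ± 0.08, SE; adjusted p = 0.000852 by edgeR). Both genes were called under all 15 alternatives.

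Of the 11 endothelial markers, none of them a member, 9 rose (81.8%, beside 9.09% of all tested genes), as did Kdr, Tek and Tie1. The markers Eng and Cldn5 and the receptor gene Flt1 were not called. When control 2 was left out or with limma on FPKM, 6 of the markers rose. The 11 markers summed to 2900 to 3226 CPM in the controls and to 4985 to 5071 CPM in the miR-423-5p libraries. Of 14 pericyte and fibroblast markers, 12 were tested and 6 fell (50%, beside 7.21% of all tested genes). The 14, with Pdgfra and Pdgfrb among them, summed to 94.7 to 189 CPM in the controls and to 25.7 to 47.0 CPM in the miR-423-5p libraries. Those that fell were the collagen genes Col1a1, Col1a2 and Col3a1, the matrix gene Lum and the pericyte markers Cspg4 (2.63 ± 0.672 to 0.415 ± 0.118 CPM, SD, n = 3) and Notch3 (1.41 ± 0.102 to 0.446 ± 0.189 CPM). Pdgfra, Pdgfrb, Anpep and Des were above 1 CPM in every library and were not called, Dcn was not called either, and Rgs5, Kcnj8 and Abcc9 were under 1 CPM in every library. The number that fell was 4 when control 1, control 2 or miR-423-5p 1 was left out. It was 3 with limma at a minimum mean FPKM of 1, 7 with DESeq2 or without control 3, and 8 with total-count scaling. Of 5 astrocyte markers, 3 were tested, none rose and 1 fell. This was Sox9, at 1.36 ± 0.315 CPM (SD, n = 3) in the controls and 0 in every miR-423-5p library (edgeR adjusted p = 0.00168). Gfap, Slc1a3 and Aqp4 were highest in control 3, and Aldh1l1 in miR-423-5p 3. In bulk RNA, fewer cells of a type and less RNA per cell cannot be told apart, and the part of these markers in the receptor values was not tested. Control 3 was the library that stood apart in neuron and epithelial markers and in the macrophage markers other than Cd68. Without control 3, the log2 fold changes of Kdr, Tek and Tie1 were 0.72, 1.23 and 0.89 and all 3 stayed called.

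**Figure D2:**
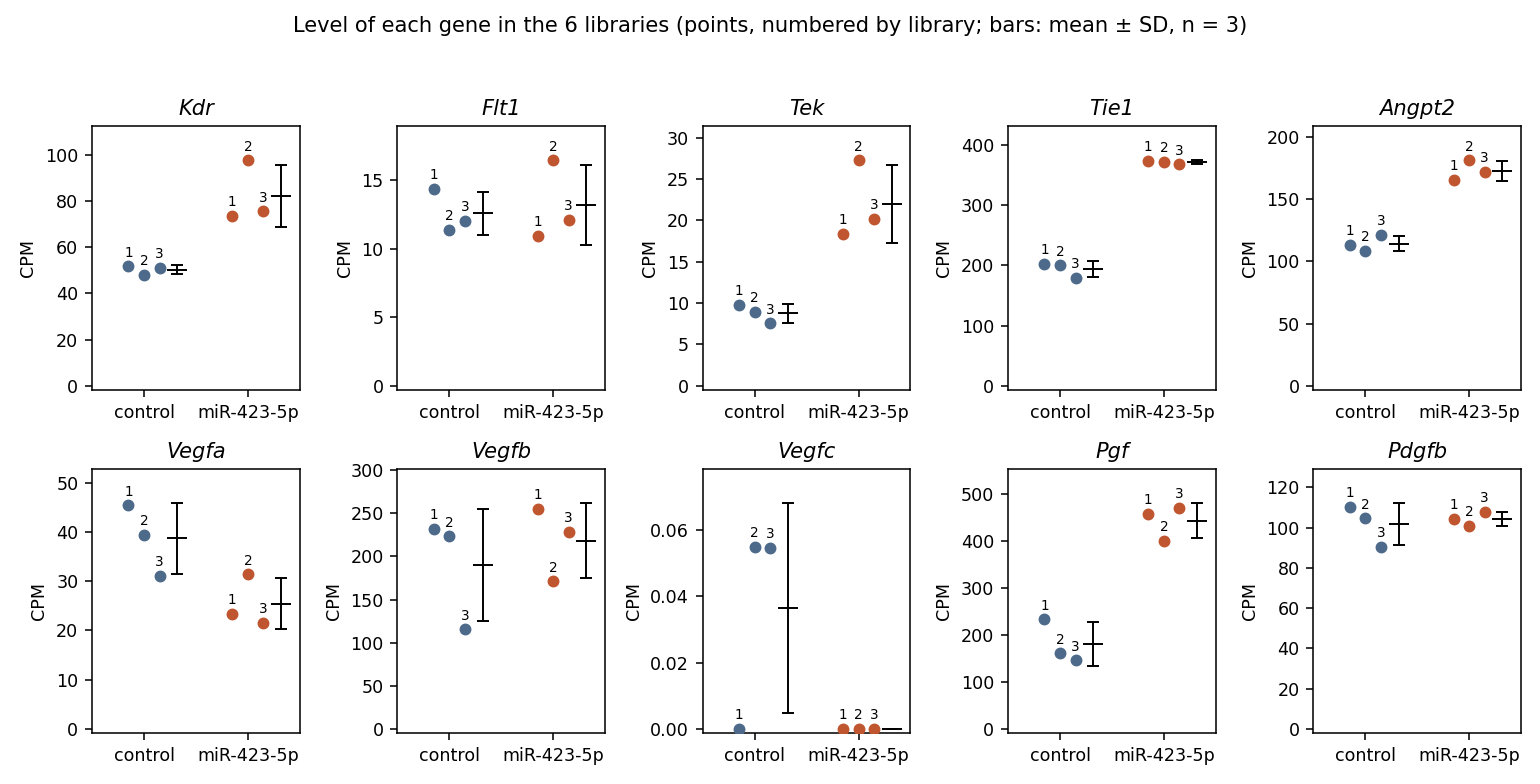
CPM of each of the 10 genes in each library, with points numbered by library and bars for the mean ± SD of 3. The miR-423-5p points lie above all control points for Kdr, Tek, Tie1, Angpt2 and Pgf, while the groups overlap for Flt1, Vegfa, Vegfb and Pdgfb; Vegfc is at 0 in 4 libraries.

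Among the ligands, Angpt2 and Pgf rose. Angpt2 (ENSMUSG00000031465, chromosome 8, 18690263 to 18741562, minus strand), the TIE2 ligand that endothelial cells store and release, stood at 113, 109 and 121 CPM in the controls and at 165, 181 and 172 CPM in the miR-423-5p libraries. All miR-423-5p libraries were above all controls. Angpt2 rose 1.51-fold (log2 fold change 0.60 ± 0.08, SE; adjusted p = 0.00316 by edgeR), and was called under all 15 alternatives. The gene lies inside Mcph1, which is on the other strand. The strand setting of the counting was not found in the labels, so reads of the pair may be mixed and the Angpt2 values are uncertain to that extent. Mcph1 fell, from 25.1 ± 0.960 to 17.3 ± 2.49 CPM (SD, n = 3; log2 fold change -0.54, edgeR adjusted p = 0.0276).

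Pgf (ENSMUSG00000004791, chromosome 12, 85166635 to 85177790, minus strand) encodes placental growth factor, which binds FLT1 and not KDR. It stood at 233, 161 and 146 CPM in the controls and at 458, 399.9 and 469.9 CPM in the miR-423-5p libraries. Control 1 was the highest control and the groups were far apart. Pgf rose 2.46-fold (log2 fold change 1.30 ± 0.18, SE; adjusted p = 0.00382 by edgeR), called under all 15 alternatives, with values from 1.13 to 1.54. Of all tested genes, 1.72% had a larger log2 fold change.

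Vegfa (ENSMUSG00000023951, chromosome 17, 46016993 to 46032369, minus strand), the main ligand of KDR and the gene with 3 matches to the seed, stood at 45.4, 39.5 and 31.1 CPM in the controls and at 23.4, 31.4 and 21.5 CPM in the miR-423-5p libraries. The groups touched, since miR-423-5p library 2 was just above control 3. The log2 difference was -0.61 ± 0.18 (SE), with a 95% interval from -1.03 to -0.18, an unadjusted edgeR p of 0.0119 and an edgeR adjusted p = 0.0631, so Vegfa was not called. The FPKM values, 10.2, 9.02 and 7.43 in the controls and 4.74, 6.63 and 4.19 in the miR-423-5p libraries, did not overlap. The difference was negative under all 15 alternatives, from -0.78 to -0.47, and 8 of them called it, among them DESeq2 (adjusted p = 0.00947), total-count scaling in edgeR (adjusted p = 0.0316), limma on FPKM, and edgeR without control 3 (adjusted p = 0.0391) or without miR-423-5p 2 (adjusted p = 0.0244). Its adjusted p over the alternatives ran from 0.00947 to 0.2.

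Vegfb (ENSMUSG00000024962, chromosome 19, 6982473 to 6987651, minus strand), an FLT1 ligand linked to fatty acid handling, stood at 232, 223 and 115 CPM in the controls and at 256, 171 and 229 CPM in the miR-423-5p libraries. Control 3 was far below the other controls, and the groups overlapped. The log2 difference was 0.20 with a 95% interval from -0.41 to 0.82, and it was -0.058 without control 3. Vegfc (ENSMUSG00000031520, chromosome 8, 54077606 to 54187096, plus strand), the ligand of the lymphatic receptor FLT4, had 0, 4 and 4 counts in the controls and 0 in each miR-423-5p library. By counting error alone a library at 0 could hold 3 counts, which is 0.0396 to 0.0508 CPM in the miR-423-5p group, so a difference was not detectable at this depth. Pdgfb (ENSMUSG00000000489, chromosome 15, 79995874 to 80014977, minus strand), the pericyte attractant, stood at 110.4, 105 and 90.4 CPM in the controls and at 104, 101 and 108 CPM in the miR-423-5p libraries. These ranges overlapped, and the log2 difference was 0.035 with a 95% interval from -0.17 to 0.25. In FPKM, which is not TMM-scaled, every miR-423-5p value of Pdgfb was below every control (21.7 to 22.0 against 22.2 to 25.6), and the log2 difference was -0.14 with limma (adjusted p = 0.231).

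The libraries of a group differed in the same way over several of these genes. miR-423-5p library 2 was the highest of its group for Kdr, Flt1, Tek, Angpt2 and Vegfa and the lowest for Vegfb, Pgf and Pdgfb. Control 3 was the lowest of its group for Tek, Tie1, Vegfa, Vegfb, Pgf and Pdgfb and the highest for Angpt2.

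Levels of different genes were compared per length, in FPKM. In the controls Vegfb was the most abundant (116 ± 37.2, SD, n = 3), followed by Pgf (61.0 ± 14.4), Tie1 (38.9 ± 1.51), Angpt2 (30.7 ± 2.56), Pdgfb (24.2 ± 1.75), Vegfa (8.89 ± 1.40), Kdr (5.50 ± 0.274), Tek (1.83 ± 0.182), Flt1 (0.918 ± 0.101) and Vegfc. Only the neighbours Vegfb and Pgf overlapped in their 3 libraries. By count per kilobase of the longest transcript, in place of FPKM, Angpt2 and Pdgfb changed places in the controls. In the miR-423-5p libraries Pgf (133 ± 6.70 FPKM) stood beside Vegfb (118 ± 21.0 FPKM), with overlapping values, and Kdr (7.96 ± 1.60 FPKM) lay above Vegfa (5.19 ± 1.28 FPKM) with no overlap. Vegfa and Tek (4.08 ± 1.02 FPKM) overlapped there. Tie1 was thus the most abundant of the 4 receptor genes and Flt1 the least in both groups.

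**Figure D3:**
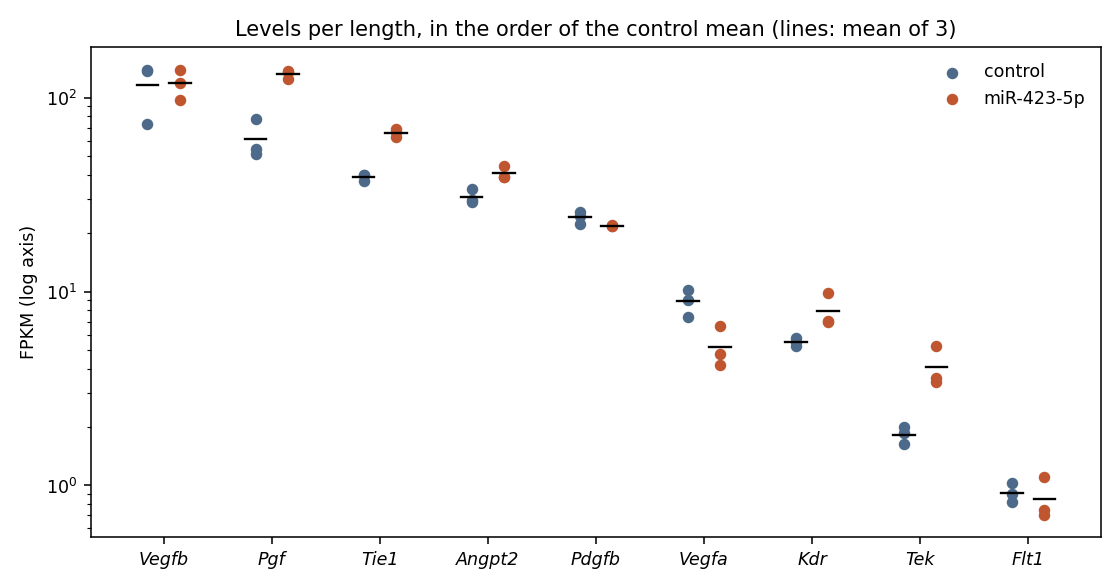
FPKM on a log axis for the 9 genes with counts in every library, in the order of the control mean, with 1 point per library and a line for the mean of 3. Kdr and Vegfa change places between the groups, and Pgf reaches the level of Vegfb in the miR-423-5p libraries.

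Ratios of 2 genes within a library do not depend on the scaling between libraries. Of the 8 ratios set out, 7 could be formed, because Vegfc had libraries at 0. The Pgf to Vegfa ratio of counts was 4.63 ± 0.535 in the controls and 18.1 ± 4.74 with miR-423-5p (SD, n = 3), 3.82-fold higher by the mean log2 ratio, and no library of one group fell within the range of the other. The Flt1 to Kdr ratio went from 0.25 ± 0.0241 to 0.159 ± 0.00981, 1.57-fold lower, again with no overlap. Angpt2 to Tek was 1.64-fold lower, Tie1 to Tek 1.29-fold lower, Vegfa to Flt1 1.58-fold lower and Pdgfb to Vegfa 1.57-fold higher in the miR-423-5p libraries, all without overlap. Each of these 6 ratios had a two-sided exact permutation p of 0.1, the smallest that 3 against 3 allows, and an adjusted p of 0.117 over the 7 ratios. The groups overlapped for Vegfb to Vegfa (exact permutation p = 0.2). How often the ratio of any 2 genes would not overlap was not worked out. For the CPM of single genes the share was 38.4%. Several of the ratios share Vegfa or Tek and follow from the changes of single genes given above, so they are not separate results. The signs of all 7 were the same with FPKM in place of counts and without any 1 library.

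**Figure D4:**
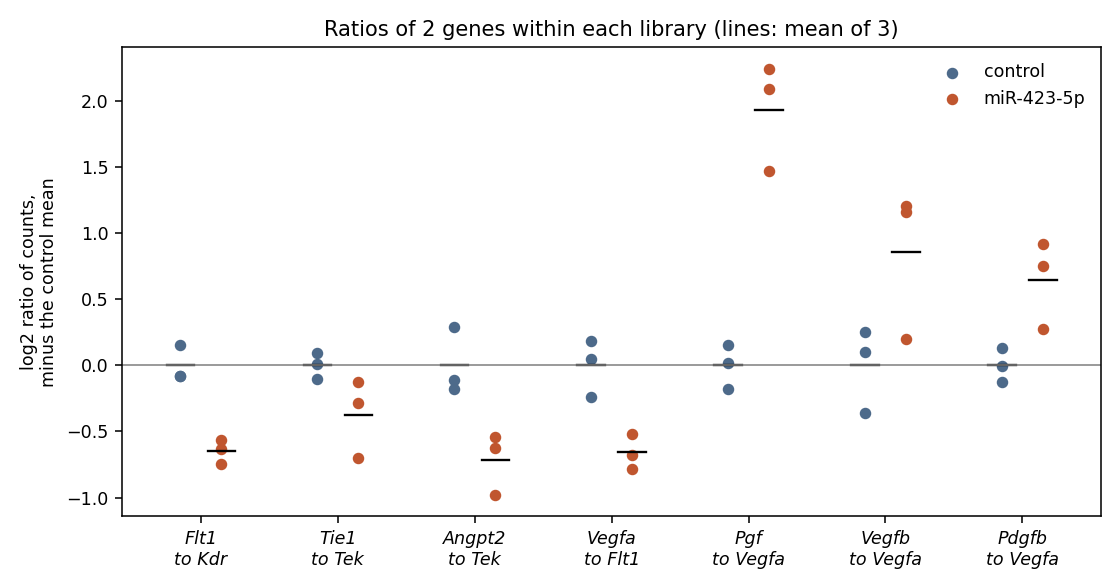
Log2 ratio of the counts of 2 genes in each library, minus the control mean, with 1 point per library and a line for the mean of 3. Pgf to Vegfa is the ratio that differs most, with a mean 1.94 above the controls, and Vegfb to Vegfa the only one whose groups overlap.

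Other genes of the same pathways were read from a list of 66, of which 64 were tested; 11 rose and 4 fell, 23.4% beside 16.3% of all genes. With total-count scaling 8 rose and 7 fell. The numbers that rose and fell were 7 and 1 with control 1 left out, 5 and 0 with control 2 left out, 8 and 2 with miR-423-5p 1 left out and 9 and 0 with miR-423-5p 3 left out. Among the other ligands, none of 6 rose and 2 fell with edgeR. None of the 6 was higher at an unadjusted p under 0.05, and DESeq2 also called 0 higher and 2 lower. Pdgfc fell from 1.51 ± 0.373 to 0.373 ± 0.180 CPM (SD, n = 3; log2 fold change -2.01, edgeR adjusted p = 0.0186), and Vegfd from 3.54 ± 0.319 to 1.88 ± 0.294 CPM (log2 fold change -0.92, edgeR adjusted p = 0.0249). With edgeR neither ligand was called when miR-423-5p 3, control 1 or control 2 was left out, and Vegfd was also lost without miR-423-5p 1 and with no filter on low counts. The TIE2 agonist gene Angpt1 was at 0.364 ± 0.00919 CPM in the controls, and it had 7, 0 and 0 counts in miR-423-5p libraries 1, 2 and 3, and was not called (edgeR adjusted p = 0.0791). Pdgfa, the other classical PDGF chain, was at 151 ± 26.5 and 151 ± 5.76 CPM and was not called, with a 95% interval of the log2 difference from -0.30 to 0.30.

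Of 6 other receptors and co-receptors, 1 rose and none fell with edgeR, 16.7% called beside 16.3% of all genes. With total-count scaling this turned to 0 higher and 1 lower, the gene called lower being Pdgfra (log2 difference -0.47, edgeR adjusted p = 0.0496). Under TMM scaling Pdgfra was the 1 gene of the 6 that was lower at an unadjusted p under 0.05, and DESeq2 called 1 higher and 0 lower. Flt4, the VEGF-C receptor gene, went from 161 ± 6.54 to 206 ± 9.29 CPM (SD, n = 3), 1.28-fold (edgeR adjusted p = 0.0171), and was not called with total-count scaling, with limma on FPKM or when miR-423-5p 3, control 1 or control 2 was left out. The co-receptor genes Nrp1 and Nrp2 and the PDGF receptor genes Pdgfra and Pdgfrb were not called, with log2 differences of -0.16, 0.07, -0.31 and -0.31. Ptprb, which encodes the phosphatase that restrains TIE2, was at 34.8 ± 8.65 and 61.8 ± 23.9 CPM and was not called (edgeR adjusted p = 0.0939).

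Of 30 genes of signalling inside the cell, 3 rose and 1 fell, 13.3% beside 16.3% of all genes. The ERK1 gene Mapk3 rose 1.60-fold, from 246 ± 17.2 to 395 ± 32.5 CPM, the focal adhesion gene Pxn 1.60-fold, from 122 ± 6.71 to 196 ± 13.6 CPM, and the Src family kinase gene Fyn 1.43-fold (values are mean ± SD of 3). Their adjusted p by edgeR was 0.00391, 0.00262 and 0.00989. The adaptor gene Gab1 fell 1.61-fold (edgeR adjusted p = 0.0396), and it was not called without any 1 library other than miR-423-5p 2. Fyn was not called with limma on FPKM or without control 2. The other 26, with Plcg1, Akt1 and Vav2 among them, were not called. Vav2 had a log2 difference of -0.52 (edgeR adjusted p = 0.054). It was called lower with DESeq2, total-count scaling, robust dispersion, limma at a minimum mean FPKM of 1, and edgeR without control 1.

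Of 15 transcripts that VEGF is known to induce in endothelial cells, 6 rose and 1 fell, 46.7% called beside 16.3% of all genes. The list was chosen with earlier results of these data known, so this share is a description and not a test. The urokinase receptor gene Plaur rose from 89.0 ± 3.70 to 157 ± 5.41 CPM, the phosphatase gene Dusp5 from 55.4 ± 5.48 to 94.7 ± 1.73 CPM, Dusp1 from 43.0 ± 2.18 to 70.4 ± 7.63 CPM and the cyclooxygenase-2 gene Ptgs2 from 18.7 ± 3.00 to 38.4 ± 8.28 CPM (mean ± SD of 3). Their adjusted p by edgeR was 0.000985, 0.00218, 0.00405 and 0.01. Hlx and Nr4a1 rose too. As background, these genes also respond to many other stimuli. The immediate early gene Egr1 was the one that fell, from 22.0 ± 2.60 to 12.9 ± 2.09 CPM. The tissue factor gene F3 and the nuclear receptor gene Nr4a3 were also lower, with log2 differences of -0.55 and -1.36 and edgeR adjusted p of 0.0568 and 0.116, and were not called. Nr4a3 was at 0.988, 1.04 and 3.52 CPM in controls 1, 2 and 3 and at 0.745, 0.686 and 0.728 CPM in the miR-423-5p libraries, so control 3 weighed most in its difference. F3 was called lower, in addition to Egr1, with DESeq2, total-count scaling and limma on FPKM. The numbers that rose and fell were 4 and 0 with control 1 left out, 3 and 0 with control 2 left out, 4 and 0 with miR-423-5p 1 left out and 5 and 0 with miR-423-5p 3 left out. Of 9 genes of ligand processing and shedding, 7 were tested and 1 rose, the membrane protease gene Mmp14 (1.38-fold, edgeR adjusted p = 0.0165), which was not called with total-count scaling, with limma on FPKM or when control 1, control 2 or miR-423-5p 1 was left out.

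**Figure D5:**
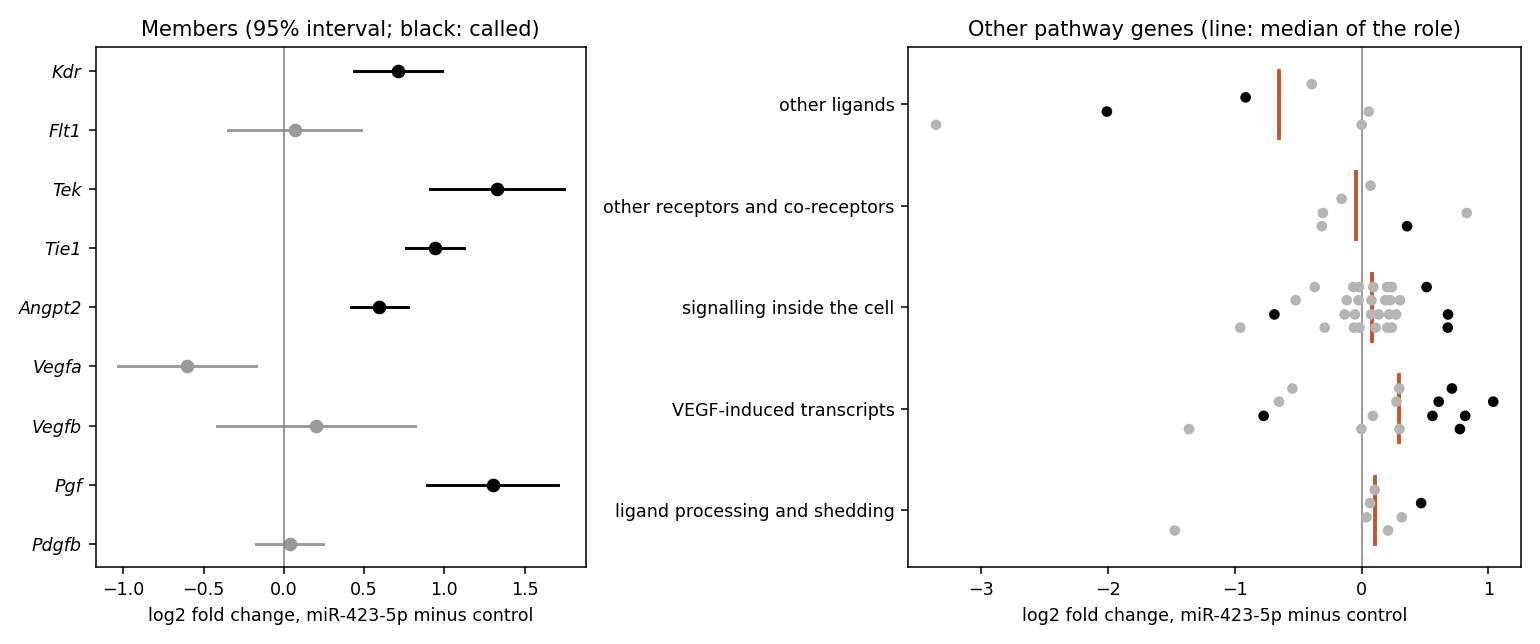
Log2 fold change, miR-423-5p minus control, of the 9 tested genes with 95% intervals (left) and of the 64 other tested pathway genes by role (right), where black marks an edgeR adjusted p under 0.05 and the line the median of the role. The intervals of Kdr, Tek, Tie1, Angpt2 and Pgf lie above 0, that of Vegfa lies below 0 though it missed the adjusted threshold, and the medians of the 5 roles run from -0.65 to 0.30.

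The genes most like each called member were those with the smallest root mean square difference of centred log2 CPM over the 6 libraries, among 9073 genes of 10 CPM or more. For Kdr they were Gfod1 and the stearoyl-CoA desaturase gene Scd2 (0.041 and 0.048, beside a median of 0.38 over the genes compared). For Tek they were the laminin gene Lama4 and Ppp1r16b (0.12 for both, median 0.68), and for Tie1 the tetraspanin gene Cd9 and Gpr146 (0.036 and 0.039, median 0.47). For Angpt2 they were the annexin gene Anxa4 and Rab3gap2 (0.032 and 0.039, median 0.32), and for Pgf the fatty acid binding protein gene Fabp4 and Kank3 (0.088 and 0.089, median 0.69). All 6 libraries enter the measure, so a like difference between the groups counts towards it.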

How the data were processed

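The deposited table gives a whole-number count and an FPKM value per gene and library, per the file headers; the denominator of the FPKM values made by the authors is not stated there. Polyadenylated RNA was read in pairs after a dUTP, strand-marking preparation, per the labels' protocols. Cutadapt 1.9, HISAT2 2.2.1, StringTie 2.1.6, DESeq2, edgeR and GRCm38 are named without roles, per the submitters' processing notes, with annotation release, counting and strand settings not given in the sources used here. Deposited counts were tested with edgeR 4.0.16 in R 4.3.3 (filterByExpr, TMM, estimateDisp, glmQLFit, glmQLFTest, group alone) over the whole table, with Benjamini-Hochberg adjustment over 18103 genes. The SE is the log2 fold change over the square root of F. Alternatives used DESeq2 1.42.0, limma 3.58.1 on log2(FPKM + 1) or log2(FPKM + 0.1), other scalings and filters, robust dispersion, a replicate block, and leaving out each library. The test was tried on simulated counts. Ratios were tested with exact permutation in scipy 1.17.1 (Python 3.11.15). Coordinates of all 10 genes equal those of GENCODE M21.

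The genes and lists were chosen with earlier results of these data known. All 10 genes are named, with up to 4 called genes per pathway role by smallest p and the 2 genes most like each called member; others are named as examples chosen after their values were seen. No 2 libraries of a group agreed within sampling noise: chi-square per degree of freedom was 18.2 or more.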

Additional observations from a re-analysis of the deposited data

How the results depend on the processing

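The number of the 10 genes called higher was 5 and the number lower 0; the first was 4 or 5 under every alternative run, and leaving out 1 library gave 4 to 5 higher and 0 to 1 lower. The number lower was 1, Vegfa, with total-count scaling, DESeq2, limma on log2(FPKM + 1) with or without a minimum mean FPKM of 1, and limma on log2(FPKM + 0.1). Of the pathway list, 11 rose and 4 fell; 7 rose with each of the 3 limma settings, 8 rose and 7 fell with total-count scaling, 12 rose and 7 fell with DESeq2, 2 fell with no filter on low counts, and leaving out 1 library gave 5 to 11 higher and 0 to 4 lower. Directions turned for genes that were never called: Flt1 was at -0.088 with total-count scaling, -0.056 with limma on log2(FPKM + 1), -0.12 on log2(FPKM + 0.1) and -0.11 to 0.19 without 1 library, Pdgfb at -0.12, -0.14 and -0.14 in the same order, -0.14 with the minimum FPKM and -0.043 to 0.10 without 1 library, and Vegfb at -0.058 to 0.37 without 1 library. By count per kilobase of the longest transcript, Angpt2 and Pdgfb changed places in the controls (ranks 5 and 4), and over all libraries the ranks of Kdr and Vegfa became 6 and 7. When bases 2 to 7 sufficed, 4 of the 10 genes had a seed match in the 3′ UTR, Vegfa among them. The cause of these changes was not tested.

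The replicate numbers are not stated to pair the libraries. Across genes, the deviations of same-numbered libraries had a Pearson r of 0.0749, -0.0264 and 0.0498. Pairs with unlike numbers ran from -0.11 to 0.0745, so same-numbered libraries did not clearly deviate together. With the number as a replicate block, Vegfa was called lower (log2 difference -0.61, edgeR adjusted p = 0.039), which made 1 member lower, 5 members stayed higher, and Gab1 was not called; 2411 of all genes were called in place of 2951. Counts of 0 to 4 limit Vegfc; with group sizes of 3, no exact permutation test could pass 0.05.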
